A study of Mus musculus with 5 samples.

Results

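The unfolded protein and integrated stress response was followed through 32 genes, which were matched by symbol among the 24860 symbols of the deposited matrices, and every 1 of the 32 was present. They were read by role as 13 chaperones and folding enzymes of the endoplasmic reticulum (ER), 6 genes of ER-associated degradation and translocation, 4 genes for the stress sensors and Xbp1, and 9 genes of the ATF4 branch. The samples were tumours that SSM2 cells, a mammary tumour line of the mouse, had formed after injection into mammary gland 4 of the left side, and their cells were read by droplet single-cell RNA sequencing. The mice, 10 to 12 weeks old, bore either a progesterone pellet (60 mg over 60 days) or a placebo pellet, and tumours were collected 28 to 62 days later. Progesterone tumours gave 3 libraries, Progesterone 1 in batch 1 and Progesterone 2 and 3 in batch 2, and placebo tumours gave 2, Placebo 1 in batch 1 and Placebo 2 in batch 2. All 5 thus share the 1 cell line and the injection site. Mouse strain and numbers are not given in the sources used here, and since Progesterone 2 and 3 were deposited under 1 common name that differs by L or R, they may share an animal. Every p-value below measures only how these libraries vary, and that variation may be technical.

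Proteins that fold poorly in the ER activate 3 sensors of its membrane, IRE1 (gene Ern1), ATF6 and PERK (gene Eif2ak3). IRE1 splices the mRNA of Xbp1, and the XBP1 and ATF6 proteins raise chaperones, folding enzymes and the machinery that returns misfolded proteins to the cytosol for degradation. PERK, like the other kinases of the integrated stress response, phosphorylates the translation factor eIF2, which slows translation in general while favouring that of ATF4. ATF4 then raises genes of amino acid synthesis and transport and, under lasting stress, Ddit3, which encodes the death-linked factor CHOP. Secretory cells such as mammary epithelium use the chaperone side of this response in normal function. The counts cover the 3' ends of mRNAs, so splicing of Xbp1, translation of Atf4 and phosphorylation of eIF2 are not measured.

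Start-site regions of the chaperone and the ATF4 branch held different sequence motifs. RefSeq windows of 300 bases on GRCm38.p6, from 250 bases before to 50 after a gene's start, were held for 29 of the 32 members. The ER stress element, which NF-Y and ATF6 are known to bind, was searched on both strands as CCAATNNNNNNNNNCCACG. It lay in the windows of 7 of the 11 chaperones and folding enzymes with a window, in 1 of 6 degradation and translocation genes, in 0 of 3 sensor genes and in 0 of 9 ATF4 branch genes, beside 0.137% of all 27025 genes with a window. The matches, which most chaperone windows held, are shown with that of Syvn1, a degradation and translocation gene. They read 5′ to 3′ in the direction of the motif, with the match in capitals and flanking bases in lower case, and Hsp90b1 held 2:
Hspa5 (chr2:34772020-34772048, plus strand): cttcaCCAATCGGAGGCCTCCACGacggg
Hsp90b1 (chr10:86705528-86705556, plus strand): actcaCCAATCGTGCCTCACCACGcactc
Hsp90b1 (chr10:86705633-86705661, minus strand): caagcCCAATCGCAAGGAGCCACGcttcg
Calr (chr8:84847070-84847098, plus strand): atgggCCAATGAGGGTCGACCACGcgttg
Canx (chr11:50325795-50325823, minus strand): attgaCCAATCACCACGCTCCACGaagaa
Pdia6 (chr12:17266486-17266514, plus strand): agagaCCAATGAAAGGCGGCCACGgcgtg
Dnajc3 (chr14:118937822-118937850, plus strand): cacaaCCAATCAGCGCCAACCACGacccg
Creld2 (chr15:88819515-88819543, minus strand): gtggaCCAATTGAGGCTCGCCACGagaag
Syvn1 (chr19:6046527-6046555, plus strand): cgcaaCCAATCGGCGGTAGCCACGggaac

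The composite element bound by ATF4 with C/EBP partners, searched on both strands as TGATGNAA, lay in 4 of 9 ATF4 branch windows (Asns, Chac1, Trib3 and Vldlr) and in Herpud1, beside 4.51% of all genes with a window, and in none of the 11 chaperone windows. Herpud1 also held the only member match to the second ER stress element, ATTGGNCCACG, found in 0.0444% of all genes. The window of Herpud1 thus holds letters of both branches, and the 2 matches do not overlap. The core of the unfolded protein response element, TGACGTGG, was in no member window and in 0.714% of all genes. A window without a match says only that these letters were not in it. Written as above, with the match in capitals, the composite element windows and the second ER stress element were:
Asns (chr6:7693214-7693243, minus strand): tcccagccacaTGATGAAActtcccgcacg
Chac1 (chr2:119351038-119351067, minus strand): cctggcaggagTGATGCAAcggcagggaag
Trib3 (chr2:152344028-152344057, plus strand): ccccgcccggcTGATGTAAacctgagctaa
Vldlr (chr19:27216809-27216838, minus strand): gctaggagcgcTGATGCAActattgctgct
Herpud1 (chr8:94386306-94386335, minus strand): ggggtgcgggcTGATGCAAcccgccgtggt
Herpud1, second ER stress element (chr8:94386368-94386396, plus strand): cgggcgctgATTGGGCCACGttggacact

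Whole windows are given for 1 member of each branch that behaves differently in the cells below, Hspa5 for the chaperones and Phgdh for the ATF4 branch. In the window of Hspa5 the capitals mark the ER stress element, 65 to 47 bases before the start. The window of Phgdh held none of the 4 motifs.
Hspa5 (chr2:34771840-34772139, plus strand): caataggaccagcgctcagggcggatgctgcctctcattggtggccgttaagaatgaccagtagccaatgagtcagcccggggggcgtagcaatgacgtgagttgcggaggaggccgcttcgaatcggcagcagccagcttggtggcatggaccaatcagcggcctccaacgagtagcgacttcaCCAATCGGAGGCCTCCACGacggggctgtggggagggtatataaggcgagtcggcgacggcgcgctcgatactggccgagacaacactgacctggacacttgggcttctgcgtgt
Phgdh (chr3:98339920-98340219, minus strand): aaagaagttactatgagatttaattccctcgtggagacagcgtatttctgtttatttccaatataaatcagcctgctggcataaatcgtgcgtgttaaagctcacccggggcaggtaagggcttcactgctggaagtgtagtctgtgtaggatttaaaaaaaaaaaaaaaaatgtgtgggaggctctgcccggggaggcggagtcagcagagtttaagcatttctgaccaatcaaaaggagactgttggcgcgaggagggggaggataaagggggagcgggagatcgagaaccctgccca

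The libraries held 23409215 to 204786073 UMIs, the count of distinct molecules, and 23018 cells were kept, with at most 8 barcodes shared by any pair of libraries. Marker genes put them in 11 classes, each with UMIs for all its markers, except for 3823 cells that stayed unnamed. Among the unnamed were 3 shallow clusters nearest to epithelial cells, 1 of them with 981 of its 1016 cells from Placebo 2. Libraries stood apart in their cells. Epithelial cells numbered 56, 3098 and 3281 in Progesterone 1, 2 and 3, against 7 and 2784 in Placebo 1 and 2, and T cells numbered 452, 44 and 65 against 4154 and 128. A class entered a fit in a library with at least 10 of its cells, so the epithelial and macrophage comparisons set Progesterone 2 and 3 against Placebo 2, which was assumed to vary like the others, while Progesterone 1 had no placebo partner in its batch. Levels are given in CPM, the gene's UMIs in a class of a library scaled to a total of 1000000 UMIs.

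In epithelial cells, where tumour and host epithelium were not told apart, members of both branches were lower in the Progesterone tumours. Most calls were lost when shallow clusters counted as epithelial or when the batch term was left out. Of the 13 chaperones and folding enzymes 0 rose and 8 fell, with a median log2 ratio of Progesterone over Placebo of -0.37. Of the 8 ATF4 branch genes tested 1 rose and 5 fell, with a median of -0.66. All 4 sensor genes fell (median -0.37), and the degradation and translocation genes split into 3 that rose and 3 that fell. The difference between the medians of the branches was not tested. Over all 31 members tested, 4 rose and 20 fell (edgeR quasi-likelihood test, Benjamini-Hochberg adjusted p under 0.05), while over all 16280 genes 25.1% rose and 26.1% fell, with a median of 0.02. Differences were thus common among all genes. Scaling by library totals alone moved the median of all genes to 0.18 and the calls over all genes to 5744 higher and 3108 lower, with 5 members higher and 15 lower. Without the batch term 12.1% of all genes and 3 members were called, all 3 lower. With batch kept but shallow clusters admitted as epithelial cells, 1 member rose and 3 fell, and the log2 ratio turned positive for 13 members, 11 of them among the 13 chaperones and folding enzymes. At the coarser clustering 6 of the 8 chaperone falls (Calr, Pdia3, Pdia4, Pdia6, Dnajc3 and Manf) were no longer called, and those of Sdf2l1 and Dnajb9 were.

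**Figure D1:**
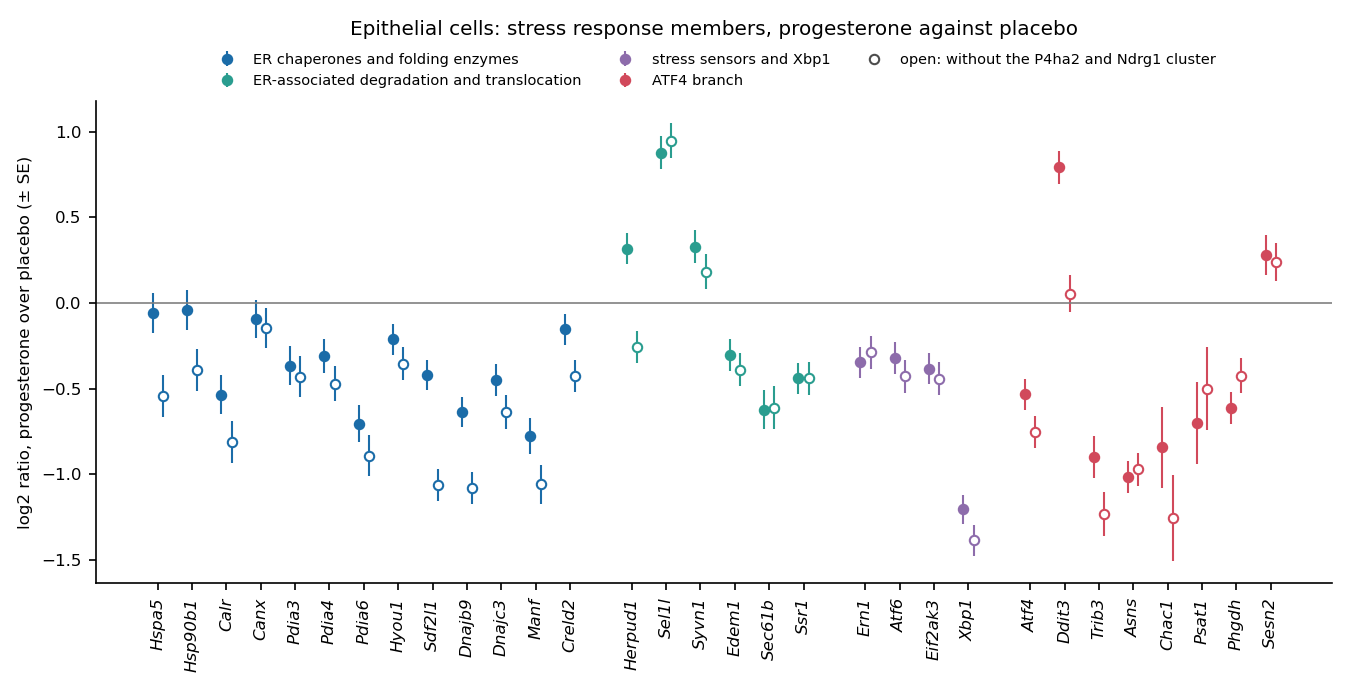
Log2 ratio of Progesterone over Placebo in epithelial cells for the 31 members tested, with standard errors, coloured by role; filled points are all epithelial cells and open points leave out the cluster led by P4ha2 and Ndrg1. All 13 chaperones and folding enzymes lie below 0 with all epithelial cells, and Ddit3 and Sel1l are the farthest above 0.

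Among the major chaperones, Hspa5, which encodes BiP, the central Hsp70 chaperone of the ER lumen, had 487, 819 and 903 CPM in Progesterone 1, 2 and 3, against 802 CPM in Placebo 2. Hsp90b1, the ER member of the Hsp90 family, had 513, 724 and 737 CPM against 673 CPM. Both genes were thus above Placebo 2 in Progesterone 2 and 3, which set the ratio, and below it only in Progesterone 1. The Progesterone libraries lay on both sides of Placebo 2 for both genes, and neither passed the test (log2 ratio -0.06 ± 0.12 SE, adjusted p = 0.704 for Hspa5; -0.04 ± 0.12, adjusted p = 0.783 for Hsp90b1). Calr, the soluble chaperone of glycoproteins, fell to 361, 503 and 469 CPM in the Progesterone libraries, against 631 CPM in Placebo 2 (log2 ratio -0.54 ± 0.11, adjusted p = 0.00038). Its membrane-bound partner Canx had 306, 318 and 305 CPM against 297 CPM and did not pass. Scaled by library totals alone, the log2 ratios were 0.10 for Hspa5, 0.12 for Hsp90b1, -0.38 for Calr and 0.066 for Canx.

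The protein disulfide isomerases, which form and rearrange disulfide bonds, were lower in each case. Pdia6 fell to 230, 393 and 368 CPM in Progesterone 1, 2 and 3, against 555 CPM in Placebo 2 (log2 ratio -0.70 ± 0.11, adjusted p = 1.3e-05). Pdia3 fell to 381, 507 and 486 CPM against 573 CPM, and Pdia4 to 134, 140 and 132 CPM against 151 CPM. No Progesterone library reached the Placebo 2 level of these 3 genes, although the difference for Pdia4 was small (log2 ratio -0.31 ± 0.10, adjusted p = 0.011).

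Several cofactors of BiP fell as well. Manf, a small ER protein that binds BiP, fell to 187, 307 and 298 CPM in Progesterone 1, 2 and 3, against 464 CPM in Placebo 2 (log2 ratio -0.78 ± 0.11, adjusted p = 2.2e-06). Dnajb9, a J-domain partner of BiP that also restrains IRE1, fell to 24.4, 37.8 and 38.1 CPM against 52.9 CPM (log2 ratio -0.64 ± 0.09, adjusted p = 2.0e-06). Dnajc3, a further J-domain partner, and Sdf2l1, which acts with BiP in folding, fell by 0.45 and 0.42 on the log2 scale. Hyou1, the nucleotide exchange factor of BiP, and Creld2, an ER stress-induced folding factor, did not pass (log2 ratios -0.21 and -0.15, adjusted p = 0.052 and 0.152).

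**Figure D2:**
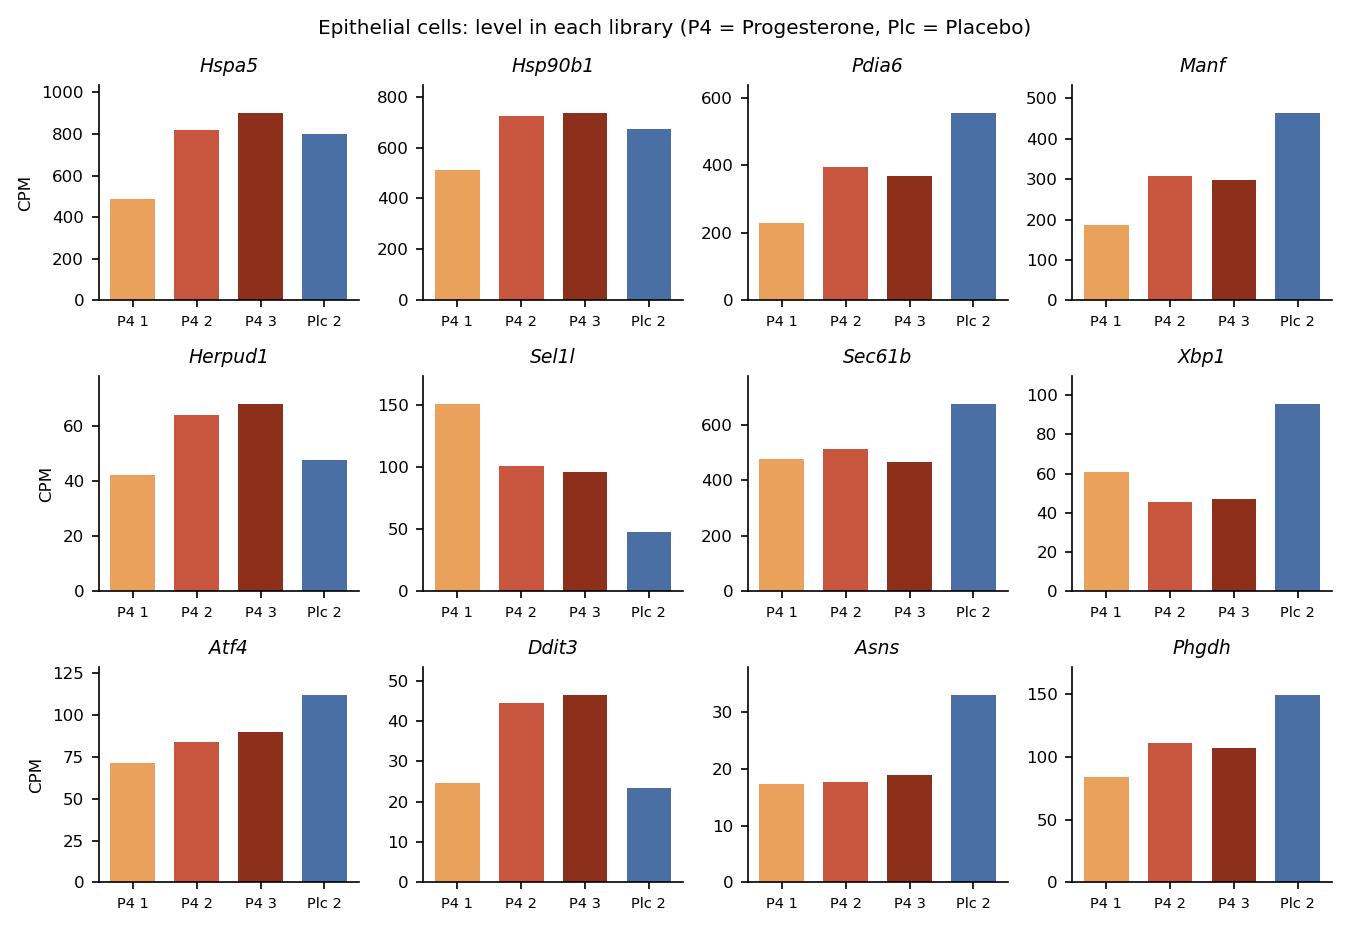
Level in CPM of 12 members in epithelial cells of the libraries with at least 10 such cells, with Progesterone libraries left of Placebo 2; each bar is 1 library. Xbp1 has 45.5 to 60.6 CPM in the Progesterone libraries and 95.6 CPM in Placebo 2, and Sel1l 95.5 to 151 CPM and 47.8 CPM.

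Of the 6 degradation and translocation members Sel1l, Syvn1 and Herpud1 rose and Sec61b, Ssr1 and Edem1 fell. Sel1l, the adaptor of the HRD1 ubiquitin ligase that clears misfolded ER proteins, rose to 151, 101 and 95.5 CPM in Progesterone 1, 2 and 3, against 47.8 CPM in Placebo 2 (log2 ratio 0.88 ± 0.10, adjusted p = 8.3e-08). Syvn1, the ligase itself, rose to 20.3, 27.8 and 29.0 CPM against 20.2 CPM (0.33 ± 0.10, adjusted p = 0.0062), a rise carried by Progesterone 2 and 3. Herpud1, a scaffold of the same complex, had 42.1, 64.1 and 68.1 CPM against 47.5 CPM (0.32 ± 0.09, adjusted p = 0.0056), so that Progesterone 1 was below Placebo 2. With DESeq2 neither Herpud1 (adjusted p = 0.086) nor Syvn1 (adjusted p = 0.169) passed. In the other direction Sec61b, a subunit of the channel through which new proteins enter the ER, fell to 475, 514 and 467 CPM against 676 CPM (-0.62 ± 0.11, adjusted p = 9.0e-05). Ssr1, of the complex beside that channel, and Edem1, a lectin that selects glycoproteins for degradation, fell by 0.44 and 0.30 on the log2 scale.

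Xbp1, the transcription factor of the IRE1 arm, showed the largest change of any member tested. It fell to 60.6, 45.5 and 47.3 CPM in Progesterone 1, 2 and 3, against 95.6 CPM in Placebo 2 (log2 ratio -1.20 ± 0.09, adjusted p = 6.5e-11). The 3 sensors fell less. Ern1 had 72.4, 71.4 and 78.2 CPM in the Progesterone libraries against 85.1 CPM in Placebo 2, Atf6 had 92.7, 98.0 and 103 CPM against 112 CPM, and Eif2ak3 had 42.9, 36.6 and 39.2 CPM against 44.2 CPM. Their log2 ratios lay between -0.38 and -0.32, and in each case all Progesterone libraries were below Placebo 2, the only placebo library of this comparison. With library totals alone the log2 ratios were -0.19 for Ern1, -0.16 for Atf6 and -0.22 for Eif2ak3. When shallow clusters counted as epithelial, they were 0.23, 0.14 and -0.19.

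Within the ATF4 branch, the enzymes of amino acid synthesis and the factor CHOP went opposite ways. Asns, asparagine synthetase, fell to 17.4, 17.6 and 18.9 CPM in Progesterone 1, 2 and 3, against 33.1 CPM in Placebo 2 (log2 ratio -1.02 ± 0.09, adjusted p = 3.8e-09). Phgdh, the first enzyme of serine synthesis, fell to 84.2, 111 and 107 CPM against 150 CPM (-0.61 ± 0.09, adjusted p = 7.4e-06). Psat1, the next enzyme of that pathway, had 11.1, 17.7 and 12.9 CPM against 22.3 CPM and did not pass (-0.70 ± 0.24, adjusted p = 0.098). Atf4 itself fell to 71.3, 83.5 and 89.5 CPM against 112 CPM (-0.53 ± 0.09, adjusted p = 3.2e-05).

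Ddit3 rose to 24.8, 44.4 and 46.5 CPM in Progesterone 1, 2 and 3, against 23.5 CPM in Placebo 2 (log2 ratio 0.79 ± 0.09, adjusted p = 2.5e-07). Progesterone 1 stood near Placebo 2 and far from the other Progesterone libraries. Trib3, a pseudokinase that CHOP and ATF4 induce, fell to 6.65, 7.98 and 9.87 CPM in the Progesterone libraries against 14.9 CPM in Placebo 2 (-0.90 ± 0.12, adjusted p = 7.9e-06), opposite to Ddit3. Chac1, which degrades glutathione, had 1, 146 and 132 UMIs in the Progesterone libraries against 211 in Placebo 2 and fell by 0.84 on the log2 scale (adjusted p = 0.0049). Sesn2, a stress-induced inhibitor of mTORC1 signalling, had 22.5, 21.1 and 18 CPM against 14.4 CPM and did not pass (0.28 ± 0.11, adjusted p = 0.051). Vldlr, a lipoprotein receptor, had 0, 2 and 6 UMIs against 1 UMI and was not tested.

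Further genes of the same pathways, which are no members, were read from lists of roles. Of 22 other chaperone branch genes 2 rose and 14 fell (median -0.32), of 25 other degradation, translocation and processing genes 1 rose and 16 fell (-0.43), of 31 other ATF4 branch genes 6 rose and 18 fell (-0.31), and of 12 other sensors and transducers 2 rose and 5 fell (-0.21). The farthest chaperone branch falls were of Fkbp11, a prolyl isomerase of secretory cells (-2.16 ± 0.09), P4hb, a disulfide isomerase (-1.23 ± 0.11), and Erp29 (-1.16 ± 0.10), against a rise of Ero1lb, a thiol oxidase (1.20 ± 0.15). Among ATF4 branch genes Atf5 (-2.28 ± 0.09), the serine enzyme Psph (-1.50 ± 0.10) and the amino acid transporter Slc7a5 (-1.50 ± 0.09) fell farthest, while Stc2, a secreted glycoprotein (3.41 ± 0.40), and the cystine transporter Slc7a11 (1.76 ± 0.21) rose farthest. Derl3, a degradation gene, rose (3.12 ± 0.23) and Sec11c, of the signal peptidase, fell (-1.60 ± 0.09).

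Other measures differed between the same libraries. The nuclear RNA Malat1 had 35420, 25120 and 28810 CPM in epithelial cells of Progesterone 1, 2 and 3, against 14630 CPM in Placebo 2, and the 10 epithelial markers summed to 17650, 19400 and 20190 CPM against 30270 CPM. In the same cells plasma cell markers summed to 140, 129 and 144 CPM in the Progesterone libraries against 278 CPM in Placebo 2, and endothelial markers to 15.2, 15.4 and 14.4 CPM against 63.1 CPM. Plasma cells are a secretory type known for high Xbp1, but no cluster was named as plasma cells and the markers were not read singly. A list of 10 hypoxia genes summed to 2824, 1723 and 1854 CPM in the Progesterone libraries against 2891 CPM in Placebo 2. A list of 11 genes of the immediate early and heat shock response, known to respond to dissociation, summed to 5437, 6551 and 5930 CPM against 5763 CPM. The part of any of these in the members' changes was not tested.

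Different epithelial clusters filled the Progesterone libraries and Placebo 2. A cluster led by P4ha2 and Ndrg1, genes known to respond to low oxygen, held 48.2%, 21.1% and 22.7% of the epithelial cells of Progesterone 1, 2 and 3 (27, 654 and 745 cells), against 0.359% of those of Placebo 2 (10 cells, exact 95% interval 0.172% to 0.66%). A cluster led by Dcpp1 and Gcg held 84.2% of the epithelial cells of Placebo 2 and 0.323% and 0.152% of those of Progesterone 2 and 3, with 0 of 56 in Progesterone 1 (exact upper limit 6.38%). Placebo 1 had only 7 epithelial cells, 3 in the P4ha2 and Ndrg1 cluster and 4 in the Dcpp1 and Gcg cluster. The near absence of the first cluster was thus seen in Placebo 2 alone. Members were left out of the genes that formed the clusters, but genes that vary with them were not, so the levels by cluster are descriptions with no test.

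The cluster led by P4ha2 and Ndrg1 held the chaperone branch at its highest. In Progesterone 2 and 3, each of the 13 chaperones and folding enzymes was higher there than in each of the other 4 epithelial clusters with at least 50 cells. Hspa5 had 1803 and 1785 CPM in it, against 517 to 789 CPM in the other clusters of Progesterone 2 and 537 to 885 CPM in those of Progesterone 3. Sdf2l1 had 214 and 192 CPM against 39.9 to 65.4 CPM and 30.6 to 79.0 CPM, and Hsp90b1 1380 and 1285 CPM against 457 to 853 CPM and 473 to 886 CPM. Xbp1, at 69.8 and 64.8 CPM, was also above the other clusters (37.2 to 41.4 CPM and 39.1 to 42.9 CPM), but below the 98.8 CPM of the Dcpp1 and Gcg cluster of Placebo 2. In Progesterone 1 the 27 cells of the cluster did not hold this level, with 452 CPM of Hspa5 and 33.4 CPM of Sdf2l1.

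The ATF4 branch was divided in the same cluster. Ddit3 had 131 and 103 CPM there in Progesterone 2 and 3, against 22.7 to 31.0 CPM and 28.1 to 34.0 CPM in the other clusters, the widest gap of the branch. Atf4, Trib3 and Chac1 were also above every other cluster in both libraries, which makes 4 of the 9 members. Psat1 (6.12 and 6.16 CPM) and Phgdh (43.1 and 53.7 CPM) were instead below every other cluster. Among clusters with at least 50 cells in a library, those 2 serine enzymes were highest in dividing cells. The Ube2c cluster had 172 and 178 CPM of Phgdh and 41.6 and 31.5 CPM of Psat1 in Progesterone 2 and 3, and a cluster of Placebo 2 with Birc5 and Cdk1 among its leading genes had 229 CPM and 43.4 CPM. For Phgdh a cluster led by Defb1 and Krt15 was close, with 153 and 165 CPM in Progesterone 2 and 3. Its 16 cells of Placebo 2 had 248 CPM, above the Birc5 and Cdk1 cluster. Among degradation genes Herpud1 followed Ddit3 in the P4ha2 and Ndrg1 cluster, with 156 and 144 CPM against 35.9 to 59.2 CPM and 31.3 to 65.6 CPM. Sel1l did not, with 79.3 and 80.5 CPM against 94.8 to 129 CPM and 77.9 to 142 CPM.

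**Figure D3:**
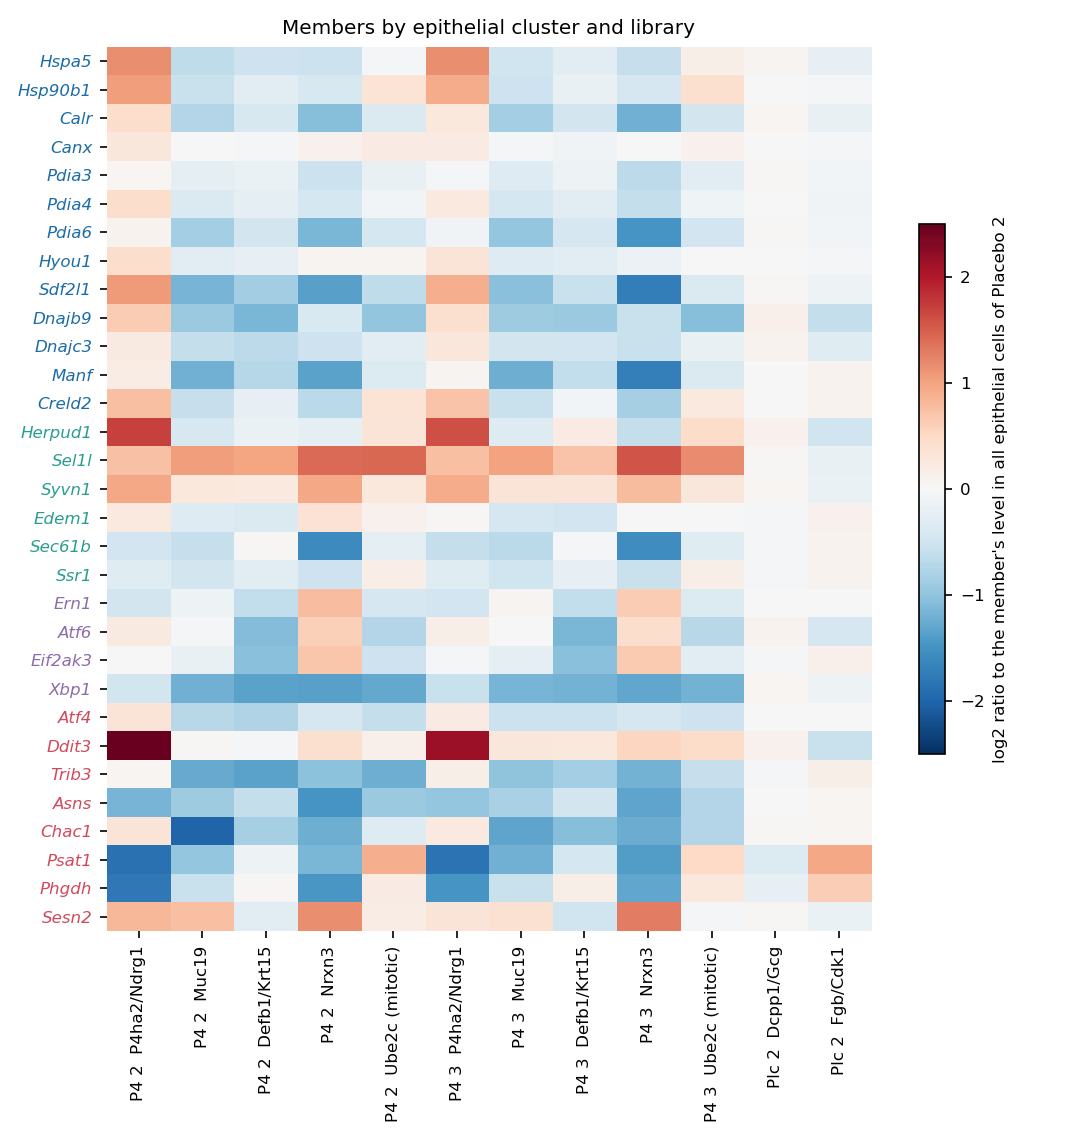
Log2 ratio of each member's level in an epithelial cluster of 1 library to its level in all epithelial cells of Placebo 2, for clusters with at least 50 cells; columns are named by library (P4 for Progesterone, Plc for Placebo) and leading genes, and member names are coloured by role. The P4ha2/Ndrg1 columns of Progesterone 2 and 3 are red for Hspa5, Hsp90b1, Sdf2l1, Herpud1 and Ddit3 and blue for Psat1 and Phgdh, while Xbp1 is blue and Sel1l red in every Progesterone column.

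The epithelial ratios were also computed without that cluster, an alternative chosen after the data were seen. Since the cluster holds the chaperones at their highest and lies almost wholly in the Progesterone libraries, leaving it out lowers their ratios by construction, and the values are a description with no test. Of the 13 chaperones and folding enzymes 12 were past the threshold as lower (median log2 ratio -0.54), beside 26.6% of 16038 genes lower and 25.3% higher. The log2 ratio was then -0.54 ± 0.12 for Hspa5 and -0.39 ± 0.12 for Hsp90b1, and -1.06 for both Sdf2l1 and Manf. Herpud1 stood at -0.26 ± 0.09, Ddit3 at 0.05 ± 0.11 and Syvn1 at 0.18 ± 0.10, so that none of these 3 genes was past the threshold as higher. Sel1l stood at 0.95 ± 0.10, Xbp1 at -1.39 ± 0.09, Asns at -0.97 ± 0.10 and Trib3 at -1.23 ± 0.13, on the same side of 0 as with the cluster.

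Ranking cells by hypoxia genes within each library, rather than by cluster, gave a like pattern, with chaperones higher and the ATF4 branch divided. The epithelial cells of a library were cut into 4 groups of near equal size by the share of UMIs from 10 hypoxia genes, none of them a member but 1 of them, Ndrg1, a leading gene of the cluster above. From the lowest to the highest group the 13 chaperones summed to 3149, 3392, 3241 and 6692 CPM in Progesterone 2, to 2898, 3271, 3279 and 6657 CPM in Progesterone 3, and to 4227, 4296, 4423 and 5519 CPM in Placebo 2. The step lay at the top group, which held 71.1% and 71.3% cells of the P4ha2 and Ndrg1 cluster in Progesterone 2 and 3 but 1.01% in Placebo 2. Of the 13 chaperones, 12 were higher in the top than in the bottom group of all 3 libraries, the exception being Hyou1 (1.39, 1.47 and 0.94 times). Of the 9 ATF4 branch genes, 3 were higher in the top group of all 3 libraries, 3 were lower in all and 3 were neither.

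The size of the step differed between members and libraries. The groups also spanned unlike levels of the hypoxia genes. From bottom to top group these summed to 478 and 4512 CPM in Progesterone 2 and to 451 and 4550 CPM in Progesterone 3. In Placebo 2 they summed to 1295 and 5504 CPM, so the steps below do not compare like contrasts between libraries. Hspa5 was 3.17 and 3.47 times higher in the top than the bottom group of Progesterone 2 and 3, and 1.54 times in Placebo 2. Sdf2l1 was 4.43 and 4.38 times higher against 2.17 times, Herpud1 3.96 and 4.14 times against 2.33 times, and Ddit3 4.39 and 3.66 times against 1.96 times. Phgdh stood at 0.533 and 0.632 of its bottom group against 0.468, and Psat1 at 0.499 and 0.633 against 0.354, so that the serine enzymes were lower in the top group of every library. Summed over the ATF4 branch the top and bottom groups had 363 and 270 CPM in Progesterone 2 and 354 and 269 CPM in Progesterone 3, but 316 and 411 CPM in Placebo 2. Cells are not replicates, and these values carry no test.

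**Figure D4:**
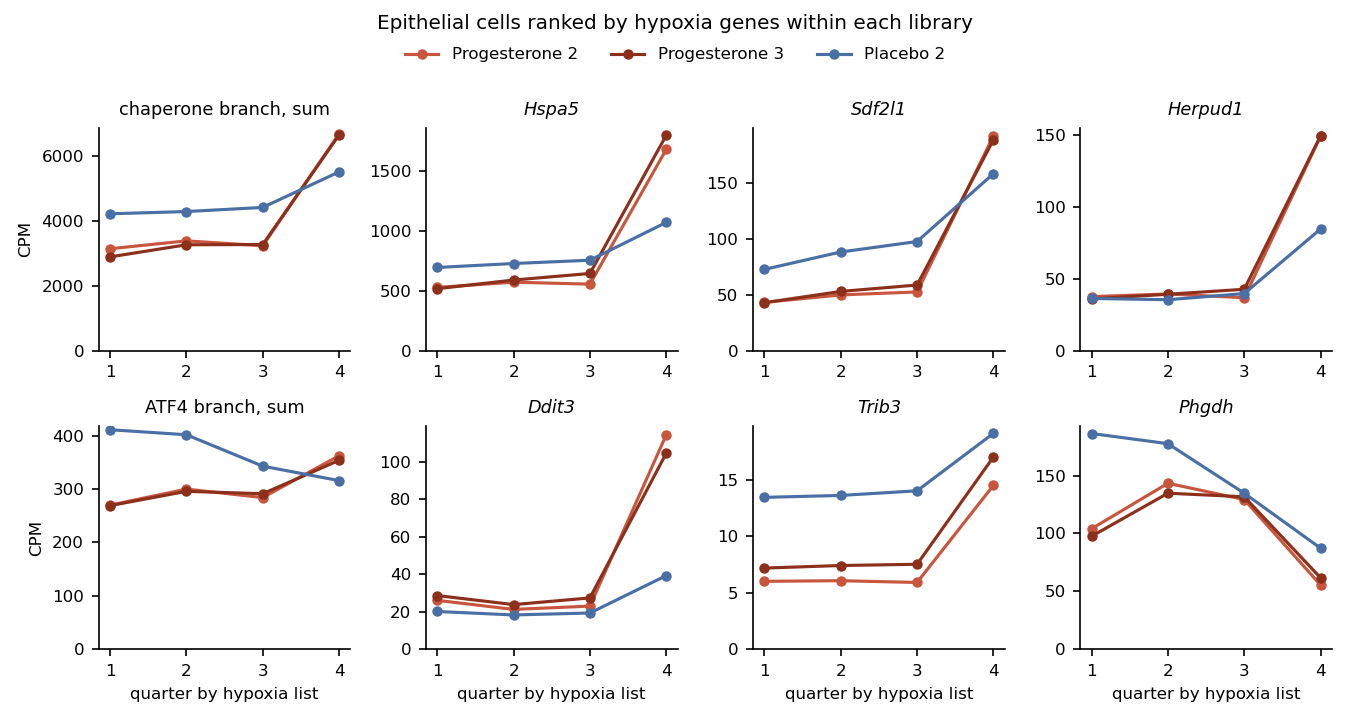
CPM of the summed chaperone and ATF4 branches and of 6 members in epithelial cells, in 4 groups of cells ranked from low (1) to high (4) by hypoxia genes within a library; each line is 1 library. Hspa5, Sdf2l1, Herpud1 and Ddit3 step up at group 4, by more in the Progesterone libraries than in Placebo 2, and Phgdh is lowest there. The groups span a wider range of hypoxia gene levels in the Progesterone libraries than in Placebo 2.

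In macrophages fewer members changed. Of 30 members tested 2 rose and 8 fell, while over 12369 genes 8.57% rose and 9.97% fell. Pdia4 fell to 114, 83.0 and 86.4 CPM in Progesterone 1, 2 and 3, against 164 CPM in Placebo 2 (log2 ratio -0.93 ± 0.15, adjusted p = 7.7e-07). Canx fell to 320, 275 and 286 CPM against 453 CPM (-0.66 ± 0.15, adjusted p = 0.00035), and Hyou1 to 40.1, 33.8 and 37.9 CPM against 62.1 CPM (-0.77 ± 0.17, adjusted p = 0.00035). All Progesterone libraries were below Placebo 2 for these 3 genes, of which Canx and Hyou1 had not passed in epithelial cells. Hspa5 had 1353, 1202 and 1405 CPM against 1073 CPM and did not pass (0.31 ± 0.15, adjusted p = 0.145). Of the 13 chaperones 0 rose and 3 fell (median -0.25). Without the batch term, and at the coarser clustering, no macrophage member was called, and DESeq2 called 2 lower and 0 higher.

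The remaining macrophage calls touched each of the other roles but the sensors. Herpud1 had 70.8, 167 and 195 CPM in Progesterone 1, 2 and 3, against 118 CPM in Placebo 2, and rose in the batch 2 comparison (log2 ratio 0.64 ± 0.16, adjusted p = 0.0015). Ddit3 rose to 67.5, 49.7 and 51.4 CPM against 35.1 CPM (0.55 ± 0.18, adjusted p = 0.019). Asns fell to 13.1, 8.62 and 9.71 CPM against 16.2 CPM (-0.79 ± 0.23, adjusted p = 0.010). Atf4 (-0.50), Psat1 (-0.91), Sec61b (-0.43) and Ssr1 (-0.43) fell as well, although Progesterone 1 stood above Placebo 2 for Atf4, with 281 CPM against 236 CPM. Of the other pathway genes, the largest changes were a fall of Fkbp11 (-1.63 ± 0.39) and a rise of Ero1lb (1.28 ± 0.21), both in the direction seen in epithelial cells, and falls of Rpn1 (-1.11 ± 0.15), Gdf15 (-1.20 ± 0.22) and Atf5 (-1.12 ± 0.22).

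Macrophage clusters were unequally filled. The cluster led by Retnla held 10.2%, 9.32% and 14.2% of macrophages in Progesterone 1, 2 and 3, against 56.7% in Placebo 2, and the cluster led by Apoe held the others. In the Apoe cluster alone Hspa5 rose to 1392, 1202 and 1450 CPM in the Progesterone libraries against 909 CPM in Placebo 2 (log2 ratio 0.54 ± 0.16, adjusted p = 0.038), Herpud1 rose (0.78 ± 0.18, adjusted p = 0.0045) and Atf4 fell (-0.60 ± 0.17, adjusted p = 0.022), with 4.45% of 11627 genes called. The 3 chaperones that fell over the whole class did not pass there, with log2 ratios of -0.07 for Canx (adjusted p = 0.903), -0.19 for Pdia4 (adjusted p = 0.684) and -0.14 for Hyou1 (adjusted p = 0.823). Ddit3 did not differ in the Apoe cluster by more than its error, with 70.6, 51.7 and 54.5 CPM against 56.6 CPM (-0.10). In the Retnla cluster alone Pdia4 was the single member called (-0.81 ± 0.23, adjusted p = 0.018), with 4.65% of 8875 genes called. Epithelial markers, as a sign of free RNA, summed to 87.5, 777 and 709 CPM in macrophages of Progesterone 1, 2 and 3 against 1184 CPM in Placebo 2, which is 0.496%, 4.01% and 3.51% against 3.91% of their level in the epithelial cells of the same library. Monocyte markers in macrophages summed to 1019, 509 and 433 CPM in the Progesterone libraries against 1549 CPM in Placebo 2, and fibroblast markers to 10.6, 20.7 and 16.3 CPM against 52.9 CPM. The part of these in the macrophage calls was not tested.

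T cells, present in all 5 libraries, gave no member call. Of 28 members tested 0 passed with edgeR and 0 with DESeq2, and 3 had an unadjusted p under 0.05. Those 3 were Ddit3, Calr and Eif2ak3. Over all 7733 genes 0.0129% passed with edgeR, 767 had an unadjusted p under 0.05 and 57 passed with DESeq2. Ddit3 had 36.2, 42.0 and 52.3 CPM in Progesterone 1, 2 and 3, against 22.8 and 20.8 CPM in Placebo 1 and 2 (log2 ratio 0.78 ± 0.32, adjusted p = 0.462). Its batch 2 values rest on 9 and 18 UMIs in Progesterone 2 and 3 and on 15 UMIs in Placebo 2. Calr had 180, 308 and 305 CPM in Progesterone 1, 2 and 3 against 253 and 385 CPM in Placebo 1 and 2, and Eif2ak3 had 131, 79.4 and 104.5 CPM against 198 and 116 CPM. The groups overlapped for both genes across batches, but within each batch every Progesterone library was below its Placebo library. How many of all genes do the same was not counted. The T cell sums of Progesterone 2 and 3 came from 44 and 65 cells. T cell clusters were unequally filled as well. A cluster led by Ctla4 and Ikzf2 held 301 of 452, 36 of 44 and 65 of 65 T cells in Progesterone 1, 2 and 3. In Placebo 1 and 2 it held 532 of 4154 and 90 of 128. Its part in the T cell values was not tested.

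Whether the difference between Progesterone and Placebo was itself unlike in epithelial cells and macrophages was tested with an interaction term within batch 2. Of 31 members 14 passed, beside 21.3% of 16536 genes. In 10 of the 14 the epithelial log2 ratio was the lower, most for Trib3 (difference -1.01 ± 0.38, adjusted p = 0.042) and Xbp1 (-0.93 ± 0.15, adjusted p = 3.4e-08), and the 10 included 5 chaperones, among them Hspa5 (-0.34 ± 0.11, adjusted p = 0.017) and Manf (-0.51 ± 0.13). In 4 it was the higher, for Sel1l (0.92 ± 0.15, adjusted p = 5.4e-08), Pdia4 (0.65 ± 0.14), Canx (0.60 ± 0.13) and Hyou1 (0.59 ± 0.16). The chaperones thus divided between both signs, whereas the 3 called genes of the sensor group (Ern1, Eif2ak3 and Xbp1) shared 1 sign. Of the ATF4 branch only Trib3 passed, and Ddit3, Asns, Phgdh and Atf4 were not shown to differ between the classes. The macrophage side of Trib3 rests on 32 and 33 UMIs in Progesterone 2 and 3 and on 26 UMIs in Placebo 2.

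Across the 11 classes, levels of each member are a description over 3 to 5 libraries with at least 10 cells. Fibroblasts, which secrete collagen, were the class with the highest median for 6 of the 13 chaperones and folding enzymes. Hsp90b1 had 1160, 1142 and 1329 CPM in fibroblasts of Progesterone 1, 2 and 3 against 1229 CPM in Placebo 2, Pdia3 had 824, 765 and 682 CPM against 729 CPM, and Pdia4 had 373, 222 and 199 CPM against 244 CPM. For these 3 genes every fibroblast value was above every value of the other 10 classes. Hspa5 was highest in monocytes, with 2298, 1793 and 1554 CPM in the Progesterone libraries against 1801 and 1336 CPM in Placebo 1 and 2, and its range overlapped that of macrophages. Epithelial cells led for Hyou1 (median 78.3 CPM), with a range that overlapped that of plasmacytoid dendritic cells.

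The sensors and Xbp1 were each highest in an immune class. Eif2ak3 had 617 and 370 CPM in B cells of Progesterone 1 and 2, against 772 and 384 CPM in those of Placebo 1 and 2, above every value of the other 10 classes, whose highest median was 150 CPM. Ern1 was highest in NK cells, with 904 CPM in Progesterone 1 against 959 and 655 CPM in Placebo 1 and 2. Xbp1 had 339, 220 and 262 CPM in plasmacytoid dendritic cells, a secretory class, of Progesterone 1, 2 and 3 against 401 CPM in Placebo 2, with no overlap with any other class. Epithelial cells, at 45.5 to 95.6 CPM, lay far below it.

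In the ATF4 branch neutrophils led for 4 of 9 members. Ddit3 had 317, 133 and 181 CPM in neutrophils of Progesterone 1, 2 and 3, and Sesn2 had 93.8, 79.7 and 111 CPM, both above every value of the other 10 classes. The neutrophil sums of Progesterone 2 and 3 came from 25 and 29 cells, with 75316 and 71744 UMIs over all genes. Progesterone 1 had 329 neutrophils with 1556566 UMIs. The levels of both genes in Progesterone 2 and 3 thus rest on few UMIs. The dissociation list summed to 8636, 16380 and 17900 CPM in neutrophils of Progesterone 1, 2 and 3. Epithelial markers, as a sign of free RNA, summed to 203.7, 2908 and 2495 CPM there. The part of these in the neutrophil levels was not tested. Neutrophils of the Placebo libraries were too few (7 and 4 cells) to give a level. Phgdh and Trib3 were highest in epithelial cells, with medians of 109.3 and 8.92 CPM against 41.7 and 4.92 CPM in the next class, and ranges that overlapped. Vldlr was found in fibroblasts, with 4.06, 24.4 and 38.7 CPM in the Progesterone libraries against 25.4 CPM in Placebo 2, and in endothelial cells of Progesterone 1 (83.6 CPM) but not in those of the Placebo libraries. Herpud1 was highest in plasmacytoid and conventional dendritic cells (medians 345 and 255 CPM), where T cells had 34.8 CPM.

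**Figure D5:**
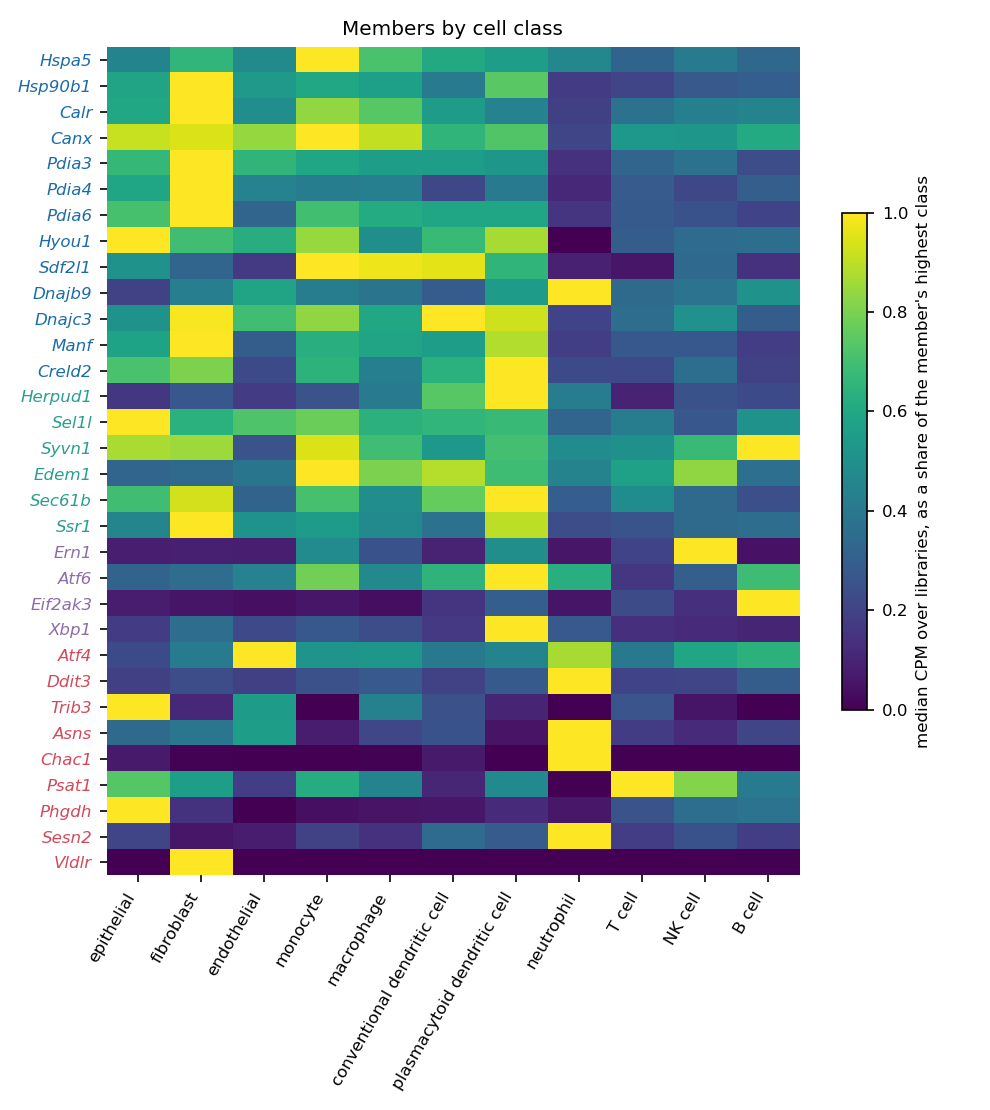
Median CPM over libraries with at least 10 cells of a class, as a share of the member's highest class; rows are members coloured by role and columns are the 11 classes. Fibroblasts are brightest for 6 of the 13 chaperones and folding enzymes, plasmacytoid dendritic cells for Xbp1, B cells for Eif2ak3, NK cells for Ern1 and neutrophils for Ddit3, Sesn2 and Asns.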

How the data were processed

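The deposited matrices held raw counts of UMIs per gene and barcode, whole numbers without any scaling. They came from Cell Ranger, in version 8.0.1 per the file headers but 7.0.0 per the submitters' processing notes, which give mm10 as genome. No mitochondrial symbols were among the genes. Members, lists and tests were chosen with earlier results of these data known.

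Barcodes had at least 500 UMIs, and cells with at least 250 genes were kept, less the barcodes with the highest Scrublet doublet scores (0.8% per 1000 barcodes). Cells were clustered with scanpy 1.11.5 (2000 variable genes less 7 pathway genes, 30 components, 20 neighbours, Leiden resolution 1, no batch integration). Clusters were named from markers: a mean scaled marker level of at least 0.5, a gap of 0.15 to the next class and at least 3 detected markers, all limits set after the data were seen. Clusters with fewer than 1/3 of their libraries' median UMIs and no own marker among their top 10 genes were left without a name (the depth rule). The gap did not apply between macrophages and monocytes.

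Sums of counts over the cells of each class in a library were tested by edgeR 4.0.16 (R 4.3.3; quasi-likelihood, robust, TMM scaling, filterByExpr, prior count 2, batch as covariate), over all genes, adjusted by Benjamini-Hochberg at 0.05, with DESeq2 1.42.0 as an alternative. The epithelial fit had 4 libraries and 1 residual degree of freedom. The titles name the 2 batches. In T cells, the deviations of Placebo 1 and Progesterone 1 from their group means correlated at 0.629, and those of Placebo 2 with Progesterone 2 and 3 at 0.217 and 0.451, over 7733 genes. The fits were also run on simulated data, with genes changed by 1 or by 2 on the log2 scale. The epithelial fit recovered 47 of 99 and 90 of 96 of them (15913 genes). The macrophage fit recovered 25 of 97 and 84 of 95 (11954 genes), and the T cell fit 60 of 80 and 88 of 88 (6552 genes). Calls among unchanged genes numbered 5, 1 and 5. Every simulated gene had the same spread, so these rates hold for that spread alone.

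All members could be named. Of other pathway genes, up to 3 higher and 3 lower per list and class were eligible, those called with the largest change. Exact (Clopper-Pearson) intervals at 95% cover counting error only. In GENCODE M21, Hsp90b1, Pdia3, Pdia6, Dnajb9, Manf and Syvn1 overlap a further gene of the files on the opposite strand, and Pdia4, Manf and Syvn1 overlap 1 on their own strand. How strand was used in counting is not given in the sources used here. Levels in CPM use class totals, while log2 ratios use TMM scaling, which lowers the epithelial ratios by about 0.16.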

Additional observations from a re-analysis of the deposited data

Results flagged for a closer look

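The difference between Progesterone and Placebo was unlike in epithelial cells and macrophages, by an interaction term in batch 2, for 14 members. The epithelial log2 ratio minus that of macrophages was -0.34 for Hspa5, -0.38 for Pdia6, -0.52 for Dnajb9, -0.45 for Dnajc3 and -0.51 for Manf among the chaperones. It was -0.41 for Edem1, -0.35 for Ern1, -0.56 for Eif2ak3, -0.93 for Xbp1 and -1.01 for Trib3. It was 0.60 for Canx, 0.65 for Pdia4, 0.59 for Hyou1 and 0.92 for Sel1l. At Leiden resolution 0.5, 7 of the 14 no longer passed. The unequal filling of clusters in both classes moves with the treatment, and its part in these differences was not tested.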

How the results depend on the processing

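Without Progesterone replicate 1, 8281 epithelial and 2280 macrophage genes were called, against 8328 and 2293. That library is alone in its batch in these classes and bears only on the spread, so this is no check of the ratios. Leaving out Placebo 2, Progesterone 2 or Progesterone 3 there was not run, since no residual spread or no placebo library of batch 2 would remain. The cause of the changes below was not tested. In epithelial cells (20 members lower, 4 higher), the fit without the replicate block, that is without batch, called 3 lower, 0 higher and 1962 genes, and ended 21 member calls. DESeq2 called 2 higher and 4681 genes, thinned UMIs 2 higher and 3176 genes, resolution 0.5 10 lower, and the cells left without the P4ha2 cluster 1 higher. With no depth rule 3 were lower, 1 higher and 2877 genes called, and log2 ratios turned positive for Hspa5 (0.78), Hsp90b1 (0.73), Calr (0.11), Canx (0.46), Pdia3 (0.26), Pdia4 (0.49), Pdia6 (0.26), Hyou1 (0.38), Sdf2l1 (0.10), Dnajc3 (0.31), Creld2 (0.12), Ern1 (0.23) and Atf6 (0.14). They also turned for Hspa5 (0.48), Hsp90b1 (0.37), Canx (0.26) and Pdia3 (0.13) at resolution 0.5, for Hspa5 (0.10), Hsp90b1 (0.12), Canx (0.066) and Creld2 (0.0060) with library totals alone, for Creld2 (0.041) with thinned UMIs and for Herpud1 (-0.26) without the P4ha2 cluster. In macrophages (8 lower, 2 higher), DESeq2 called 2 lower, 0 higher and 362 genes, no replicate block 0, 0 and 6, and resolution 0.5 0, 0 and 45. Thinned UMIs gave 5 lower and 1384 genes, the Apoe cluster alone 1 lower and 517 genes, and the Retnla cluster alone 1 lower, 0 higher and 413 genes. There Pdia4 turned at resolution 0.5 (0.10), Sec61b (0.046), Ssr1 (0.13), Psat1 (0.088) and Ddit3 (-0.10) in the Apoe cluster, and Sec61b (0.016) in the Retnla cluster. In T cells 1 gene was called, against 57 with DESeq2, 300 with no filter on low counts, 0 without the replicate block, 0 with thinned UMIs and 1 to 508 when each library was left out, 508 being without Placebo 2. No member was called in T cells under any of these. Epithelial and macrophage ratios differed for 2141 genes at resolution 0.5. Library totals alone, and the 3 settings by cluster, were chosen after seeing the data. The T cell sums of Progesterone 2 and 3 held 214225 and 344411 UMIs.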
